A study of Homo sapiens with 4 samples.

Results

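Aminoacyl-tRNA synthetases were examined as a family of 36 transcripts among the 25277 gene symbols measured in mantle cell lymphoma cells after BTK knockdown. The family was listed by gene name. It holds 18 cytosolic enzymes, 15 mitochondrial enzymes (symbols ending in 2) and 3 scaffold proteins (AIMP1, AIMP2 and EEF1E1) of the cytosolic multi-synthetase complex. Its members were chosen by gene family, after the ratios of hairpin over control in these same libraries had been seen, so those ratios are given below as a description, without a test. All 36 had a mean of at least 1 FPKM (fragments scaled by transcript length and by the mapped total of the library) and were among the 11484 symbols that passed this filter on low values.

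Mino and Z138 are known as established lines of mantle cell lymphoma, a B cell cancer. Each had been made into a stable cell line with a tet-on vector carrying either a short hairpin against BTK, the kinase downstream of the B cell receptor, or the control vector named sc4. All 4 cultures, controls included, had received doxycycline for 48 hours, and 1 library was sequenced per line and vector. The labels do not say what sc4 expresses, whether a stable line is 1 clone, or whether another hairpin was used, so effects of the hairpin on other genes and of BTK loss cannot be told apart.

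Read depth is unknown, and the columns summed to 669013 to 740192 FPKM. EEF1A1, a cytosolic elongation factor, was listed at 0 FPKM in the Z138 control, against 6911 in the Z138 hairpin library. In Mino it was at 6404 and 6976 (control, then hairpin). Whether that 0 is a missing value is not known, and its effect on the column sums was not tested. BTK, the target, stood at 36.99 FPKM without and 9.84 with the hairpin in Mino, and at 50.96 and 12.39 in Z138. The summed level of 8 B lineage markers was 1006 to 1360 FPKM in the 4 libraries. The cyclin gene CCND1, which defines most mantle cell lymphomas, was at 591 and 600.5 FPKM in Z138 but at 3.18 and 2.62 in Mino. The 5 myeloid markers summed to at most 0.482 FPKM and the 4 T cell markers to at most 4.65. The 3 epithelial markers summed to 36.1 to 38.8 FPKM in Mino and to at most 0.41 in Z138. The 3 fibroblast markers summed to at most 4.61 FPKM and the 3 erythroid markers to at most 0.289. SOX11, another marker of this lymphoma, had 23.7 and 21.5 FPKM in the Mino libraries, close to 19.8 and 22.1 in those of Z138. CD5, also such a marker, ran the other way from CCND1, at 2.33 and 1.70 FPKM in Mino and 0.075 and 0.053 in Z138. The CCND1 and epithelial values go against the label of the Mino libraries, so the identity of that line is in doubt. Mino below means the 2 libraries so labelled, and every Mino value and every difference between the lines carries this doubt.

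A synthetase joins an amino acid to its matching tRNA, the step at which the genetic code is read into protein building blocks. Cytosolic and mitochondrial ribosomes use separate sets of charged tRNAs, and most amino acids have a separate nuclear gene for each compartment. GARS and KARS serve both compartments from a single gene. EPRS carries glutamate and proline activities in 1 protein. It sits with IARS, LARS, MARS, QARS, RARS and KARS in the complex held together by the scaffold proteins. When amino acids run short or the endoplasmic reticulum is stressed, the transcription factor ATF4 is known to raise many cytosolic synthetase genes through an element with the core TGATGCAA. The enzymes treated here as known ATF4 targets, from textbook knowledge, are AARS, CARS, EPRS, GARS, IARS, LARS, MARS, NARS, SARS, TARS, WARS and YARS.

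The sequence around that core is shown first because the ratios below are also set out by it. RefSeq promoter windows (GRCh38.p14, 250 bases before to 50 after a gene's start) were matched for 33 of the 36 members: 16 cytosolic, 14 mitochondrial and 3 scaffold. LARS, YARS and AARS2 were not matched. RefSeq now writes most cytosolic symbols with a final 1 (AARS1 for AARS), and the names used here are those of the deposited table. TGATGCAA, read on either strand, was found at 6 of the 16 cytosolic genes, 0 of the 14 mitochondrial genes and 0 of the 3 scaffold genes, and at 1.08% of all 27305 genes with such windows (0.866% of 35116 windows, since a gene can have more than 1). All 6 genes belong to the known ATF4 targets, of which 10 were matched. The 30 bases around each match are given 5′ to 3′ on the gene's strand, with the match in capitals. In 5 of the 6 the match lies on the opposite strand and so reads TTGCATCA.
AARS, chr16:70289675-70289704, minus strand: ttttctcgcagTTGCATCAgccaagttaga
CARS, chr11:3057407-3057436, minus strand: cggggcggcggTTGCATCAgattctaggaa
IARS, chr9:92293692-92293721, minus strand: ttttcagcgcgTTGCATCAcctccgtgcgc
MARS, chr12:57488053-57488082, plus strand: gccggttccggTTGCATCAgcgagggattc
NARS, chr18:57621804-57621833, minus strand: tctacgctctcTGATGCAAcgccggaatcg
TARS, chr5:33440956-33440985, plus strand: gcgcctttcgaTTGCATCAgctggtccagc

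The match began 13 bases before the start in IARS, 4 before it in MARS, 2 before it in CARS and 187 before it in AARS. In NARS and TARS it lay just inside the transcript. The looser form TGATGNAA, which includes every TGATGCAA, added GARS among the cytosolic and YARS2 among the mitochondrial genes, against 4.46% of all genes. CACGTG, the E-box bound by MYC and related factors, was found at 1 of 16 cytosolic genes (IARS), 3 of 14 mitochondrial genes (CARS2, EARS2 and MARS2) and 1 of 3 scaffold genes (AIMP2), against 8.77% of all genes. CGCATGCG, the core of the palindrome bound by NRF1, was found among the matched members only at MARS2, and TGACGTCA, the cyclic AMP response element, only at AIMP2, against 2.46% and 2.25% of all genes. Both strands were searched for each motif. A match describes the letters in the window and is not a measured binding site.

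The 250 bases before the start of IARS and of MARS2 are printed as an example from each compartment. In IARS the capitals mark CACGTG and then TTGCATCA, and in MARS2 they mark CGCATGCG and then CACGTG.
IARS, chr9:92293698-92293947, minus strand: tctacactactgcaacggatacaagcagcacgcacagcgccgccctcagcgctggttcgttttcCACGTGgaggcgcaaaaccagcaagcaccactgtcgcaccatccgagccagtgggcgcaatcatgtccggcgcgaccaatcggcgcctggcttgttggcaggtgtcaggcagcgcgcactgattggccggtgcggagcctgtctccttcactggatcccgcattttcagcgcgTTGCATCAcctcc
MARS2, chr2:197705119-197705368, plus strand: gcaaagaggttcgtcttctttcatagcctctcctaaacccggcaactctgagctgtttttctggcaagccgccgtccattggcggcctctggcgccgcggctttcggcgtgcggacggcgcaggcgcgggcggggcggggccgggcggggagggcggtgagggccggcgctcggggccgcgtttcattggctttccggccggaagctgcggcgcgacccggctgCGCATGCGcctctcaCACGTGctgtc

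Levels were examined next, in FPKM, which is per transcript length. Cytosolic synthetases were abundant, with medians of 60.4 and 76.5 FPKM in Mino (control, then hairpin) and of 98.8 and 109 in Z138. Mitochondrial synthetases had medians of 9.71, 9.91, 10.6 and 11.6 FPKM, close to those of all tested symbols (9.31 to 10.7). Each mitochondrial enzyme lay below its cytosolic counterpart for the same amino acid in all 4 libraries, in 15 of 15 pairs with EPRS set against both EARS2 and PARS2. The median excess of the cytosolic enzyme was 5.52-fold in the Mino control and 11.3-fold in the Z138 control. Summed over the family, cytosolic exceeded mitochondrial transcripts 8.75-fold, 10.6-fold, 9.33-fold and 9.09-fold in the same order of libraries.

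Within the cytosolic group the level differed widely. NARS (asparagine) was the most abundant in Mino, at 253 and 287 FPKM in control and hairpin, and WARS (tryptophan) in Z138, at 305 and 292. RARS (arginine) was the least abundant by its mean over the libraries, at 19.9 and 19.5 FPKM in Mino and 14.9 and 17.7 in Z138. QARS (glutamine) was alike everywhere, at 161 and 155 FPKM in Mino and 163 and 158 in Z138.

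Mitochondrial levels were low and narrower. IARS2 (isoleucine) had the highest mean, at 14.5 and 14.7 FPKM in Mino and 48.3 and 51.2 in Z138. WARS2 (tryptophan) had the lowest, at 4.77 and 3.93 FPKM in Mino and 4.25 and 4.03 in Z138. The pair for tryptophan was therefore the widest of all in Z138, with WARS 71.7-fold and 72.4-fold above WARS2 in control and hairpin, against 19.0-fold and 29.7-fold in Mino. The pair for histidine was the narrowest in Mino, with HARS 1.07-fold and 1.04-fold above HARS2. HARS and HARS2 lie head to head and share 437 bases of annotated exon on opposite strands in GENCODE release 29, and no source used here says whether strand was counted, so their split is uncertain.

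**Figure D1:**
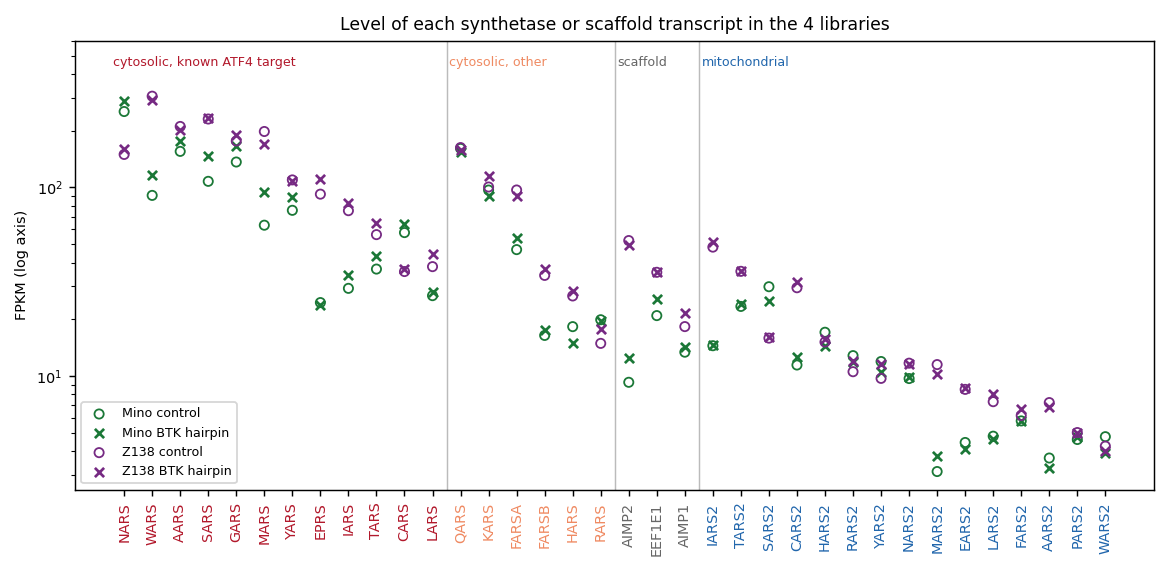
FPKM of each of the 36 transcripts (log axis) in the 4 libraries, with 1 point per library, grouped as cytosolic enzymes known as ATF4 targets, other cytosolic enzymes, scaffold proteins and mitochondrial enzymes, and ordered by mean level within a group. Members run from 3.12 to 304.9 FPKM, and the mitochondrial group lies lowest.

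The hairpin was then set against the control within each line, to see how the family stood after BTK knockdown. In Mino, cytosolic synthetases were mostly higher in the hairpin library and mitochondrial ones were not. The median log2 ratio, on the log2(FPKM + 1) scale, was 0.18 for the 18 cytosolic enzymes, with 13 above 0, and −0.04 for the 15 mitochondrial enzymes, with 7 above 0. Over all tested symbols the median was −0.01, and 47.7% were above 0. Beyond a log2 ratio of 0.32, 3 cytosolic enzymes, 1 scaffold protein and 0 mitochondrial enzymes were higher, against 4.44% of all tested symbols, and 0 members were lower by as much, against 5.75%. There is 1 library per group in a line, so these differences have no replicate check.

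The Mino values of single enzymes ran as follows. MARS, the methionine enzyme that also charges the initiator tRNA, was at 63.1 FPKM in the control and 94.2 in the hairpin library, a log2 ratio of 0.57. SARS, the serine enzyme, was at 108 and 146 FPKM, a log2 ratio of 0.44. WARS was at 90.8 and 117 FPKM, a log2 ratio of 0.36. These 3 lay furthest to the higher side among the enzymes.

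GARS, the glycine enzyme, came next, at 137 and 165 FPKM (log2 ratio 0.27). YARS (tyrosine), TARS (threonine) and IARS (isoleucine) each had a log2 ratio of 0.23, with IARS at 29.2 and 34.4 FPKM and TARS at 36.9 and 43.6. FARSA, the catalytic subunit for phenylalanine, had 0.19, and its partner subunit FARSB 0.09. NARS, AARS (alanine) and CARS (cysteine) had 0.18, 0.18 and 0.14.

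On the other side in Mino stood HARS, at 18.3 and 14.98 FPKM (log2 ratio −0.27). KARS (lysine), QARS and RARS had −0.10, −0.06 and −0.03, and EPRS −0.05. LARS, the leucine enzyme that also senses leucine for mTORC1, was at 26.7 and 27.8 FPKM (0.06).

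The cytosolic ratios in Mino were then set out by the list of known ATF4 targets. Of the 12 known targets, 11 were above 0 (all but EPRS), with a median log2 ratio of 0.23 and a range of −0.05 to 0.57. Of the other 6, 2 were above 0 (FARSA and FARSB), with a median of −0.04 and a range of −0.27 to 0.19. The 6 genes with TGATGCAA in the promoter window were all above 0 in Mino, from 0.14 to 0.57, with a median of 0.21. The 10 matched cytosolic genes without it had a median of 0.03, with 5 above 0. They mix known targets with the other enzymes. The known targets among them were SARS, WARS, GARS and EPRS, at 0.44, 0.36, 0.27 and −0.05. Within the known targets, the genes with the core were thus not the higher ones as a group. By membership of the multi-synthetase complex, the 7 enzymes in it had a median of −0.03 in Mino and the 11 outside it 0.19. With the scaffold proteins counted in, the complex had a median of 0.07, with 6 of 10 above 0. In Z138 the order was reversed, at 0.19 for the enzymes in the complex and 0.05 for those outside it. This split is not independent of the list of known ATF4 targets. Class I and class II enzymes, which differ in the fold of the catalytic domain, had medians of 0.14 and 0.18.

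Scaffold proteins were above 0 in Mino in 3 of 3 cases. AIMP2, which binds most enzymes of the complex, was at 9.27 and 12.5 FPKM in control and hairpin (log2 ratio 0.40). EEF1E1, also called AIMP3, was at 20.9 and 25.7 FPKM (0.29). AIMP1, the precursor of the cytokine EMAP II, was at 13.4 and 14.3 FPKM (0.09).

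Mitochondrial enzymes in Mino ran from −0.24 to 0.21. Those for methionine and cysteine lay highest: MARS2 was at 3.12 and 3.75 FPKM (0.21) and CARS2 at 11.4 and 12.6 (0.13). The lowest were the enzymes for serine, tryptophan and histidine. SARS2 was at 29.8 and 25.0 FPKM (−0.24), WARS2 at 4.77 and 3.93 (−0.23) and HARS2 at 17.1 and 14.4 (−0.23). YARS2, AARS2, RARS2, EARS2 and LARS2 had −0.18, −0.13, −0.11, −0.10 and −0.04. TARS2, PARS2, NARS2, IARS2 and FARS2 lay between 0.00 and 0.04. In the pairs for the same amino acid, the cytosolic ratio exceeded the mitochondrial ratio in 13 of 15 pairs in Mino. It did so by 0.68 for serine, 0.59 for tryptophan and 0.41 for tyrosine, and by a median of 0.19.

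**Figure D2:**
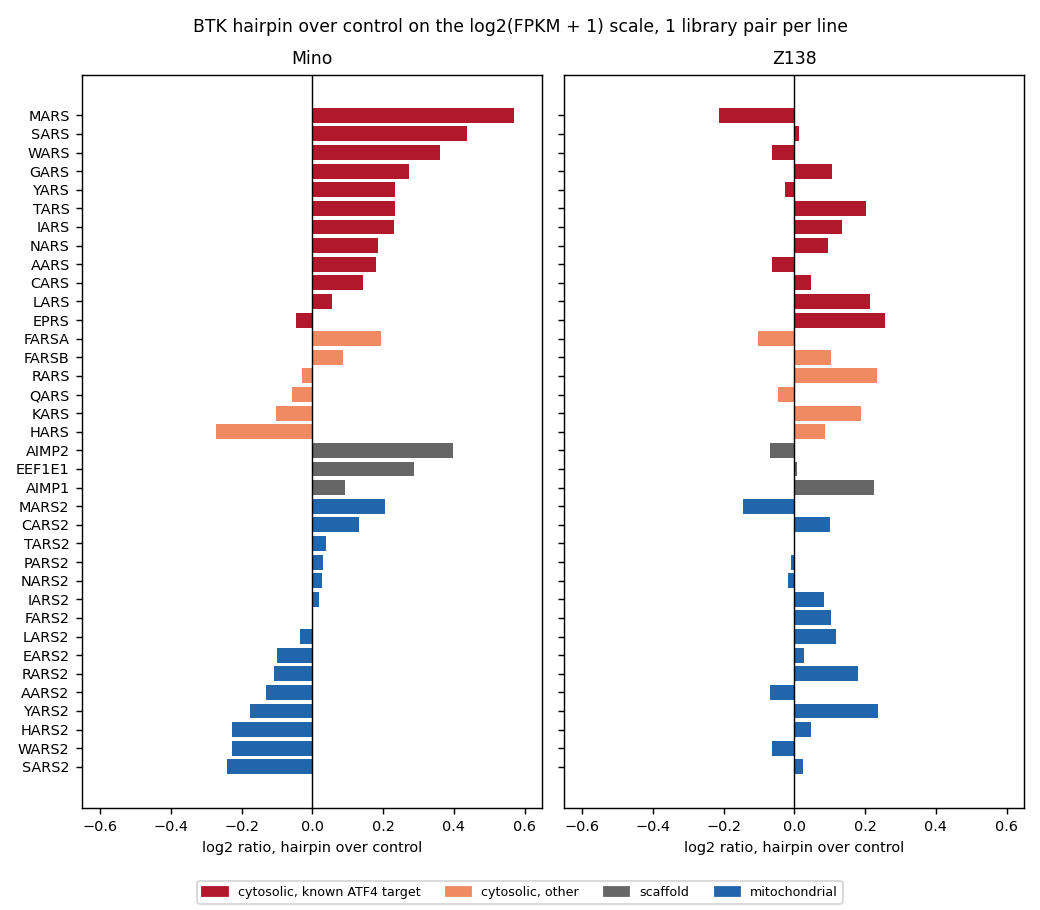
Log2 ratio of hairpin over control for each member in Mino (left) and Z138 (right), on the log2(FPKM + 1) scale, with 1 bar per member from 1 pair of libraries. In Mino 11 of the 12 known ATF4 targets are above 0, and in Z138 8 of them are, with MARS at −0.21.

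In Z138 the difference between compartments was smaller. The 18 cytosolic enzymes had a median log2 ratio of 0.09, with 12 above 0, and the 15 mitochondrial enzymes 0.03, with 9 above 0. Over all tested symbols the median was 0.03, and 55.3% were above 0. No member lay beyond 0.32 in either direction, against 5.32% higher and 4.17% lower among all tested symbols. The cytosolic ratio exceeded the mitochondrial one in 9 of 15 pairs, by a median of 0.04. Whether the lines differ in this was not tested, since each had 1 pair of libraries.

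The members at the top of the Z138 ratios were others than in Mino. EPRS was at 92.2 FPKM in the control and 110 in the hairpin library (log2 ratio 0.26). YARS2 was at 9.72 and 11.6 (0.24), RARS at 14.9 and 17.7 (0.23), AIMP1 at 18.3 and 21.6 (0.23) and LARS at 38.05 and 44.3 (0.21). MARS, highest in Mino, had the lowest ratio in Z138, at 198 and 171 FPKM (−0.21).

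SARS and WARS were nearly level in Z138, at 231 and 233 FPKM and at 305 and 292 (0.01 and −0.06). TARS was at 56.3 and 64.9 FPKM in Z138 (0.20), close to its ratio in Mino. Known ATF4 targets and other cytosolic enzymes had medians of 0.07 and 0.10 in Z138. The genes with and without TGATGCAA also had 0.07 and 0.10.

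The Z138 ratios of the 36 members went down with GC content of the transcript about as closely as those of all tested symbols. Those of the cytosolic enzymes followed it more closely. Spearman's rho between GC content and the log2 ratio was −0.58 in Z138 and 0.03 in Mino across the 36 members. Across the 18 cytosolic enzymes it was −0.88 in Z138 and 0.36 in Mino. Over the 10788 tested symbols with a GC value it was −0.56 in Z138 and 0.11 in Mino. These are relations across genes that share the same libraries, and they are given as a description. When trends on GC content and length were removed, the cytosolic and mitochondrial medians in Z138 were 0.06 and 0.06, and those of known ATF4 targets and other cytosolic enzymes were 0.07 and 0.05. In Mino the medians of these 2 cytosolic groups were 0.23 and −0.06 after the same step, with 11 of 12 and 2 of 6 above 0.

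**Figure D3:**
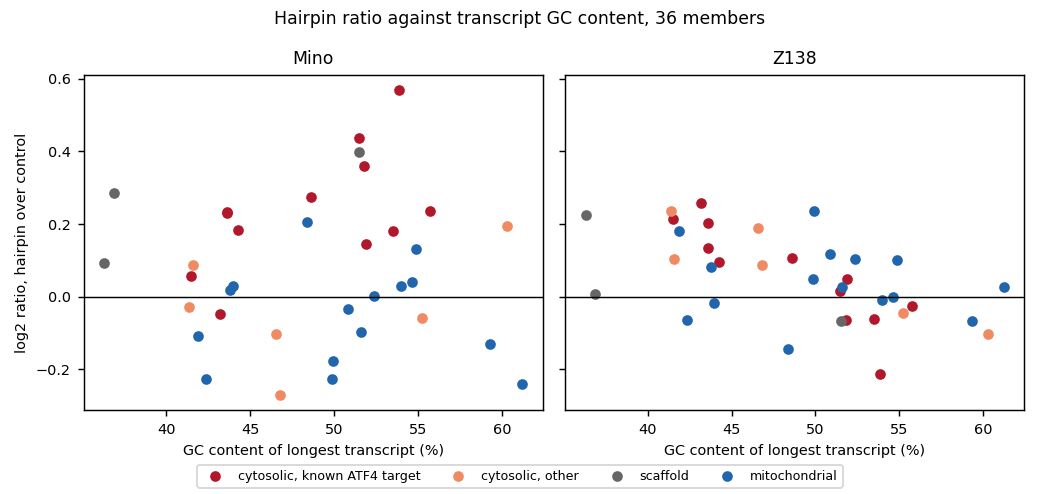
Log2 ratio of hairpin over control against GC content of the longest transcript (%) for the 36 members in Mino (left) and Z138 (right), with 1 point per member. In Z138 the ratio goes down as GC content goes up (rho −0.58 across the 36 members, −0.88 across the 18 cytosolic enzymes). In Mino rho is 0.03 across the 36 members and 0.36 across the cytosolic enzymes.

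Across both lines, 13 members were above 0 in Mino and in Z138 (23.1% of all tested symbols were), 3 were below 0 in both (19.4%), and 20 had opposite signs (56.2%). In the limma model of line plus hairpin, 0 of 36 members had a Benjamini-Hochberg adjusted p under 0.05, against 0.122% of all tested symbols. The count at an unadjusted p under 0.05 was also 0, against 2.79%. The hairpin ratios were known when the family was chosen, so nothing is read from these counts. The model has 1 residual degree of freedom per gene, and the lines are the only replication. To this limma added 6.885 prior degrees of freedom taken from all genes, so the error of a gene rests mostly on other genes.

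In GENCODE release 29, 12 members share exon bases with a neighbour on the other strand, and reads of such genes cannot be told apart if strand was not counted. They are MARS, AIMP2, AIMP1, HARS, HARS2, WARS, YARS, KARS, SARS2, CARS2, EARS2 and AARS2. MARS shares 355 annotated exon bases with DDIT3, the ATF4-induced factor CHOP, and 519 with ARHGAP9. DDIT3 was at 111 and 150 FPKM in Mino (log2 ratio 0.43) and at 115 and 134 in Z138 (0.21). ARHGAP9 was at 9.75 and 11.8 FPKM in Mino and 8.26 and 7.87 in Z138. AIMP2 shares 532 bases with EIF2AK1, which was at 119 and 120 FPKM in Mino and 86.0 and 88.2 in Z138. The part of these neighbours in the values of MARS and AIMP2 was not tested. Apart from microRNA genes, EEF1E1 shares 393 bases with EEF1E1-BLOC1S5 and HARS2 152 with ZMAT2 on the same strand. Counting by strand would not separate those reads. Without MARS, the known ATF4 targets in Mino had a median of 0.23 with 10 of 11 above 0.

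Z138 was compared with Mino over both vectors. Members were listed by gene name and not by this contrast, but with earlier results of these data known. The family was mostly higher in Z138. In limma, with Benjamini-Hochberg adjustment over 11484 symbols, 22 of 36 members passed as higher in Z138 (61.1%, against 28.7% of all tested symbols) and 3 as lower (8.3%, against 38.8%). The median log2 difference was 0.58 for the cytosolic enzymes, 0.22 for the mitochondrial enzymes and −0.12 for all tested symbols. At 2-fold or more, 9 members were higher in Z138 (25.0%, against 11.5%) and 0 were lower (against 18.3%). No test compares the family with other genes. Each line had 2 libraries, 1 per vector, and neither was repeated. As for the hairpin, the error of a gene in the model rests mostly on other genes. The gene's own part of it comes from the gap between the hairpin ratios of the 2 lines. A hairpin response that differs between the lines thus counts as error, and p-values do not measure a spread between repeated cultures. The epithelial markers EPCAM, KRT8 and KRT18, at 6.07 to 25.5 FPKM in Mino and at most 0.395 in Z138, also differed between the lines, and their part in the result was not tested.

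The widest difference belonged to a scaffold protein. AIMP2 was at 9.27 and 12.5 FPKM in Mino against 52.3 and 49.9 in Z138, a log2 difference of 2.14 (SE 0.15, adjusted p = 7.47e-06 in limma). EPRS, the bifunctional enzyme that AIMP proteins hold in the complex, was at 24.5 and 23.7 FPKM in Mino against 92.2 and 110 in Z138, a difference of 2.02 (SE 0.13, adjusted p = 5.05e-06). In both genes the Z138 libraries lay far above the Mino libraries, whatever the vector. EEF1E1 and AIMP1 were also higher in Z138, by 0.60 (SE 0.13) and 0.49 (SE 0.13). AIMP1 did not pass without the Mino control (adjusted p = 0.0863 in limma), the Mino hairpin (0.0554) or the Z138 hairpin library (0.0569).

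Among the other cytosolic enzymes, WARS was at 90.8 and 117 FPKM in Mino and 305 and 292 in Z138, a difference of 1.52 (SE 0.14, adjusted p = 2.87e-05 in limma). IARS was at 29.2 and 34.4 FPKM in Mino and 75.3 and 82.7 in Z138 (1.29). MARS differed by 1.24, FARSB by 1.02, FARSA by 0.89 and SARS by 0.88, all passing. HARS, TARS, LARS, YARS and AARS also passed, from 0.70 down to 0.32. AARS and YARS stood near the threshold (adjusted p = 0.0478 and 0.0216 in limma). Neither passed without the Mino control (adjusted p = 0.124 and 0.0748), the Z138 control (0.128 and 0.0888) or the Z138 hairpin library (0.0853 and 0.0775). TARS did not pass without the Mino control (0.0525) or the Z138 hairpin library (0.0562). GARS, KARS, QARS and RARS did not pass (0.28, 0.20, 0.02 and −0.26). GARS passed without the Mino hairpin (adjusted p = 0.0342) and RARS, as lower, without the Z138 hairpin library (0.0469). NARS and CARS went the other way. NARS was at 253 and 287 FPKM in Mino and 150 and 160 in Z138 (−0.80, SE 0.11, adjusted p = 0.000415), and CARS was at 57.7 and 63.8 FPKM in Mino and 35.8 and 37.1 in Z138 (−0.72, SE 0.12, adjusted p = 0.000972).

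Of the 15 mitochondrial enzymes 7 passed as higher in Z138, 1 as lower, and 7 did not pass. Among all tested symbols 28.7% passed as higher and 38.8% as lower. IARS2 differed by 1.70 (SE 0.12, adjusted p = 9.26e-06 in limma). MARS2 was at 3.12 and 3.75 FPKM in Mino and 11.5 and 10.3 in Z138, a difference of 1.43 (SE 0.15, adjusted p = 6.92e-05). CARS2 was at 11.4 and 12.6 FPKM in Mino and 29.4 and 31.6 in Z138 (1.27, SE 0.13), so the cysteine pair differed in opposite directions between the lines. EARS2, AARS2, LARS2 and TARS2 passed at 0.87, 0.85, 0.60 and 0.58. SARS2 was lower, at 29.8 and 25.0 FPKM in Mino and 15.9 and 16.2 in Z138 (−0.73, SE 0.13, adjusted p = 0.00158), while its cytosolic partner SARS was higher in Z138. SARS2 shares 349 exon bases with MRPS12 on the other strand, which was at 57.8 and 62.5 FPKM in Mino and 75.6 and 64.97 in Z138. NARS2, FARS2, PARS2, HARS2, WARS2, YARS2 and RARS2 lay between 0.22 and −0.12, and the lines overlapped in HARS2, WARS2, YARS2 and RARS2.

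The order of the difference from AIMP2 down to NARS is a ranking of single genes, and neighbours in it mostly lie closer together than their SE of 0.11 to 0.18. The enzymes in the complex had a median difference of 0.57 and those outside it 0.58. MYC, a transcription factor known to act on genes of translation, was at 63.9 and 46.6 FPKM in Mino against 407 and 439 in Z138. ATF4 itself was at 698 and 806 FPKM in Mino against 932 and 896 in Z138. Whether MYC or ATF4 has a part in the differences between the lines was not tested.

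**Figure D4:**
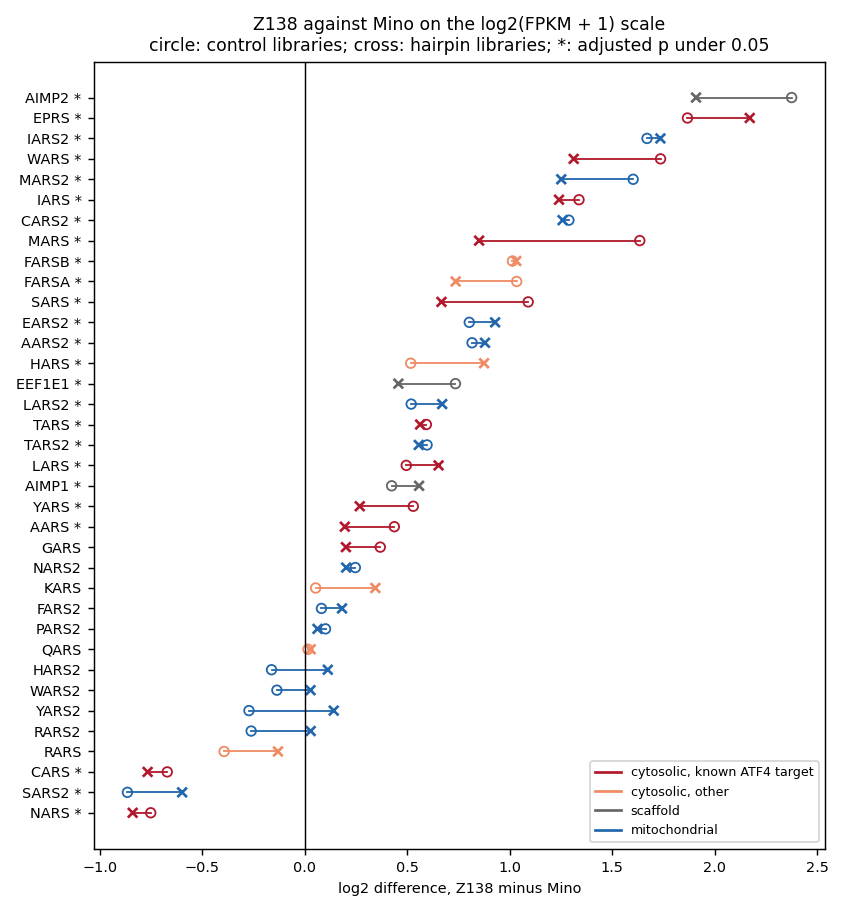
Log2 difference of Z138 minus Mino for each of the 36 members, on the log2(FPKM + 1) scale, from the control libraries (circles) and from the hairpin libraries (crosses), joined by a line. Members run from 2.14 for AIMP2 to −0.80 for NARS. An asterisk marks the 25 of 36 with an adjusted p under 0.05 in limma, beside 7745 of all 11484 tested symbols.

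Other genes of the same pathways were set beside the family, by lists of known function. Other ATF4 targets, which supply amino acids or answer stress, had a median hairpin ratio of 0.43 in Mino with 18 of 19 above 0, and −0.08 in Z138 with 5 of 19 above 0. CHAC1, which degrades glutathione, was at 52.3 and 91.2 FPKM in Mino and 61.8 and 61.0 in Z138. TRIB3, a feedback inhibitor of ATF4, was at 141 and 239 FPKM in Mino and 328 and 302 in Z138. PSAT1, of serine synthesis, was at 39.8 and 66.7 FPKM in Mino and 60.9 and 61.2 in Z138.

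Amino acid transporters had a median of 0.30 in Mino, with 12 of 13 above 0, and −0.08 in Z138, with 5 of 13. SLC43A1, a carrier of large neutral amino acids, was at 29.9 and 49.9 FPKM in Mino and 32.5 and 29.95 in Z138. SLC6A9, the glycine transporter, was at 4.96 and 9.04 FPKM in Mino and 24.9 and 19.1 in Z138, and SLC7A1, which carries arginine and lysine, was at 16.4 and 22.3 FPKM in Mino and 56.8 and 53.7 in Z138. Both lists thus had higher medians in Mino than the known ATF4 targets among the synthetases (0.23).

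Regulators of the integrated stress response had a median of 0.02 in Mino and of 0.05 in Z138. PPP1R15A, which helps remove phosphate from eIF2, was at 161 and 124 FPKM in Mino and 50.9 and 48.3 in Z138. EIF2AK4, the kinase GCN2 that uncharged tRNA activates, was at 12.9 and 10.7 FPKM in Mino and 4.89 and 5.10 in Z138. Genes of tRNA processing, modification and export had medians of 0.05 and 0.06. TRNT1, which adds the CCA end that synthetases charge, was at 3.94 and 5.43 FPKM in Mino and 5.56 and 7.16 in Z138. XPOT, which exports tRNA from the nucleus, was at 42.3 and 49.9 FPKM in Mino and 111 and 123 in Z138.

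Mitochondrial translation beyond the synthetases was close to all tested symbols in Mino. The median of the 76 measured mitochondrial ribosomal protein genes was 0.01 in Mino and 0.02 in Z138, with 39 and 41 above 0. The 15 mitochondrial translation factors had 0.03 and 0.18, with 8 and 12 above 0. MRRF, which recycles mitochondrial ribosomes, was at 8.48 and 9.69 FPKM in Mino and 23.0 and 26.1 in Z138. With trends on GC content and length removed, the Z138 median was 0.12 over the 13 translation factors with a GC value, against 0.03 for all symbols with one. In these lists of other genes 0 passed in limma for the hairpin across lines.

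**Figure D5:**
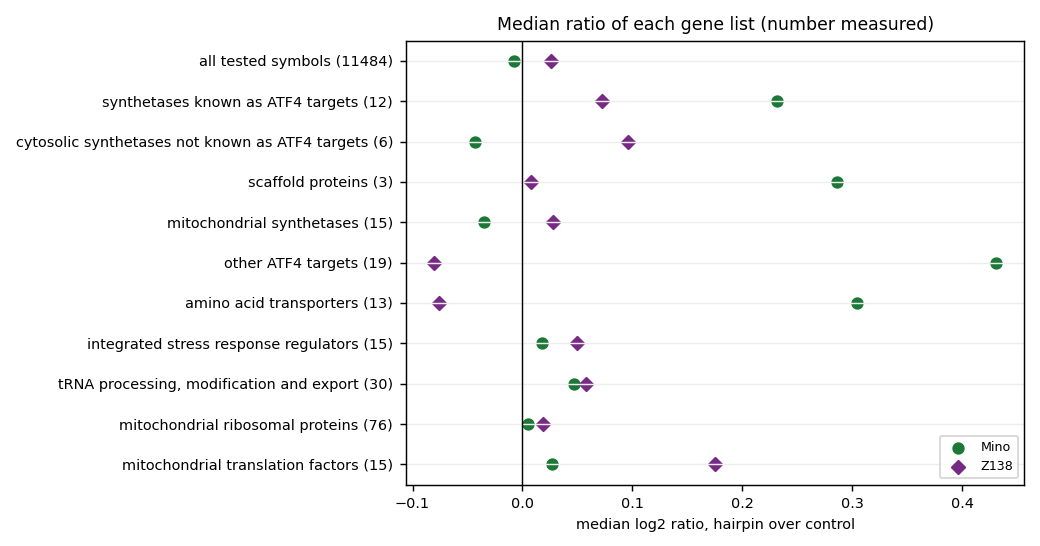
Median log2 ratio of hairpin over control for the gene lists shown in Mino (circles) and Z138 (diamonds), with the number of measured genes in parentheses. Cytosolic elongation factors, with medians of 0.12 in Mino and −0.10 in Z138, are not drawn. Among them, EEF1A1 was listed at 0 FPKM in the Z138 control. In Mino other ATF4 targets (0.43), amino acid transporters (0.30), scaffold proteins (0.29) and synthetases known as ATF4 targets (0.23) stand to the right, while mitochondrial lists stay within 0.04 of 0.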

How the data were processed

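RNA-seq of 4 cultures, 1 library per line and vector, was analysed. The authors deposited 1 table of FPKM values with 1 column per library, per the file headers. Per the submitters' processing notes, TopHat and hg19 were used. The program behind the FPKM, its annotation and its strand setting are not named in the sources used here. FPKM values are not counts, so depth is unknown and no counting interval is given.

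Values were analysed as log2(FPKM + 1), which understates changes of low genes, for symbols averaging 1 FPKM or more. The model in limma 3.58.1 (R 4.3.3) had cell line and hairpin as additive terms, a mean-variance trend and Benjamini-Hochberg adjustment over 11484 symbols at 0.05. It was run on simulated data with 200 changed genes, in which all genes had the same spread. That run cannot check the calls under the differing spread of the real genes. The line pairs the libraries, so it is the block. Within a line, ratios of 2 libraries have no test.

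Lists are described by counts and medians beside all tested symbols. One cytosolic enzyme of the family is not reported here. Every other member is named, and of other lists up to 4 genes with the largest mean ratio at 5 FPKM or more could be named. MYC, ATF4 and overlapping neighbours were named after their values were seen. The members and lists were chosen with earlier results of these data known. GC content and length came from the longest transcript per symbol in GENCODE release 29 (GRCh38), available for 93.9% of tested symbols and all 36 members. That build also gave exon overlaps. Promoter windows are RefSeq's on GRCh38.p14. Motifs were matched by letters.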

Additional observations from a re-analysis of the deposited data

Results flagged for a closer look

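For 3 members the Mino and Z138 pairs of libraries differed in opposite directions by at least 1.1-fold each way. The gap between the lines' log2 ratios of hairpin over control (Mino minus Z138) was 0.78 for MARS, 0.35 for MARS2 and −0.41 for YARS2. With a single pair of libraries per line, this difference was not tested. Opposite ratios of that size occurred in 8.33% of the members and in 14.3% of all tested symbols.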

How the results depend on the processing

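The count of all symbols called for the hairpin in limma depended on the settings. It was 14 as reported, 9 with a pseudocount of 5 FPKM, 9 at a mean of at least 5 FPKM, 2 with no filter on low values, 28 without symbols listed at 0, 7 with libraries brought to the same upper quartile, 7 with GC content and length trends removed, and 0 with no replicate block (no cell line term). The count of members called was 0 in each of these. The cytosolic minus mitochondrial median ran from 0.20 to 0.22 in Mino and from 0.00 to 0.07 in Z138. Between the lines, members called higher in Z138 numbered 18 to 23 and lower 3 or 4 over all settings, each library left out in turn included. Those left-out fits had no hairpin term, and the lone library of a line is assumed to vary like the others. Apart from them, AARS did not pass at the same summed FPKM, at a mean of at least 5 FPKM, with no filter or with a pseudocount of 5 FPKM, and YARS did not pass at the same summed FPKM. GARS and RARS passed in some settings. Scaling to the same summed FPKM moved the median line difference of all symbols from −0.12 to −0.22, and QARS and PARS2, which do not pass, then changed sign. In Z138, 5 member ratios changed sign under that scaling and 6 with the GC and length step, QARS, YARS and TARS2 among both. The ratios within a line and the line differences within a vector come from 1 pair of libraries and carry no test. Without reads per library, small changes cannot be told from counting error.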
